A study of Mus musculus with 8 samples.

Results

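The genes described here were 5 receptors of the EphA class (Epha3, Epha4, Epha5, Epha6 and Epha7) and the 5 ligands of the ephrin-A class (Efna1, Efna2, Efna3, Efna4 and Efna5). They were chosen by gene symbol, as 10 of the 53392 genes quantified, and their 46 annotated transcripts were kept apart as well as summed. The tissue was whole cerebral cortex of newborn FVB/N mice at postnatal day 0, in 4 libraries from mice with the R342X mutation of Phf6 and 4 from wild-type mice of the same strain, age and tissue. Phf6 encodes a chromatin-associated protein of the nucleus and lies on the X chromosome, and the series asked how its mutation changes cortical gene expression. The labels give no sex, litter or animal for a library. If libraries were not from separate animals, the p-values below reflect just the variation among the samples at hand, which may be technical.

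Eph receptors are receptor tyrosine kinases, and ephrins are their ligands on the surface of neighbouring cells. Ephrin-A proteins are held in the membrane by a lipid (GPI) anchor and bind mainly EphA receptors, with signals passing into both the receptor cell and the ligand cell. In the developing cortex graded EphA and ephrin-A expression takes part in the sorting of thalamic axons to their target areas, and contact between them is best known for turning growth cones away.

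Libraries held 30469745 to 39453169 estimated reads in mutants and 48841467 to 74266937 in wild type, so each wild-type library was the deeper one. Phf6 itself was lower in mutants, with a mean of 42.2 CPM (read counts scaled to library size by TMM) against 79.0 CPM in wild type, with a log2 fold change of -0.90 ± 0.08 (SE) and an adjusted p of 0.00226 by edgeR. The first principal component split the 8 libraries into 2 sets and held 35.3% of the variance of log2 CPM. Set 1 held mutant replicates 1 to 3 and wild-type replicate 1, and set 2 held mutant replicate 4 and wild-type replicates 2 to 4. The labels do not explain the sets, which differed in the share of reads given to retained-intron transcripts (3.67% to 3.87% in set 1 and 4.05% to 4.22% in set 2). Genotype was therefore also tested beside library set. Markers of the labelled tissue were present: the deep-layer factor Tbr1 stood at 211 CPM and the excitatory neuron factor Neurod6 at 405 CPM in wild type. Markers listed for striatum and thalamus were measured too, and their summed levels are given with the marker lists.

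All 10 members passed the filter on low counts. Levels were compared between genes per length, in TPM (reads scaled by transcript length and library size), where the wild-type mean fell from 71.9 ± 11.4 for Epha4 to 3.99 ± 1.19 for Epha6 (SD, n = 4 each). Epha4, a receptor for ligands of both ephrin classes, was followed by Epha5 at 52.9 ± 4.90 TPM and Epha7 at 43.5 ± 3.89 TPM. The most abundant ligands were Efna3 at 39.4 ± 2.79 TPM and Efna2 at 30.5 ± 4.08 TPM. Epha3 came next at 19.4 ± 1.25 TPM, and the other ligands ran from Efna4 at 14.7 ± 0.424 TPM through Efna5 at 10.1 ± 0.761 TPM to Efna1 at 6.35 ± 0.817 TPM. The wild-type libraries overlapped between neighbours for Epha4 and Epha5, Epha5 and Epha7, Epha7 and Efna3, and Efna1 and Epha6, so the order within those pairs was not resolved. The other 5 neighbouring pairs did not overlap in wild type. Of the 20097 genes tested, 86.7% had a lower wild-type TPM than Epha4 and 37.6% a lower one than Epha6.

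**Figure D1:**
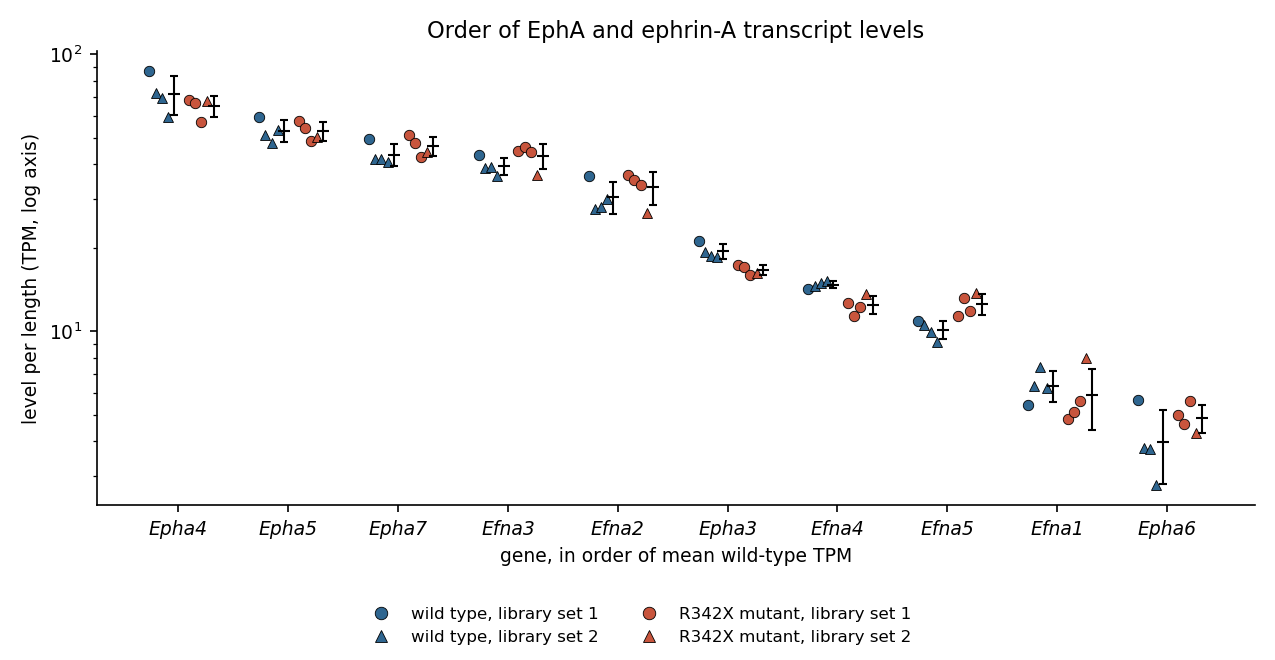
Level of each gene in each library (TPM, log axis), in order of the wild-type mean. Circles are libraries of set 1 and triangles of set 2, and bars give the mean ± SD of 4 libraries. Epha4 lies highest (71.9 TPM in wild type) and Epha6 lowest (3.99 TPM), and Efna5 lies above its wild-type libraries in each mutant library.

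The genes lay on 7 chromosomes of the GRCm38 genome, as annotated in GENCODE M21. Efna1 (chr3:89271733-89281142), Efna3 (chr3:89313899-89322965) and Efna4 (chr3:89333390-89338028) lay within 66.3 kb on the minus strand of chromosome 3. An antisense gene, Gm15998, lies over Efna3 and another, 4731419I09Rik, over an end of Efna4. Whether reads were assigned by strand is not given in the sources used here, so reads of these antisense genes could not be told from those of Efna3 and Efna4. Epha6 (chr16:59653483-60605531) and Epha3 (chr16:63543534-63864175) lay 2.94 Mb apart on the minus strand of chromosome 16. The others stood alone: Epha4 at chr1:77367185-77515088, Epha7 at chr4:28813131-28967499, Epha5 at chr5:84054761-84417382, Efna2 at chr10:80179482-80190010 and Efna5 at chr17:62604184-62881317. The gene span ran from 4.64 kb for Efna4 to 952 kb for Epha6.

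Several members had transcripts that code for different proteins. For Epha7 the transcript of highest mean TPM codes for a receptor without the kinase, and it exceeded the full-length transcript in every library but wild-type replicate 1. Epha7-201 codes for 998 amino acids, and Epha7-202 shares its first 9 exons but ends in another last exon, which holds 32 coding bases before the stop and leaves a protein of 610 amino acids. Short EphA7 forms of this kind, without a kinase domain, are known to modify signalling by the full-length receptor. In Epha7-203 the start of exon 10 lies 12 bases further on than in Epha7-201, so that 4 codons are missing and 994 amino acids remain. The 3 junctions are shown on the plus strand because they alone tell the forms apart at this point, with the last 30 bases of the shared exon 9 in lower case and the coding bases of exon 10 that follow in capitals. Exon 10 lies at chr4:28947528-28947653 in Epha7-201, chr4:28947540-28947653 in Epha7-203 and chr4:28946219-28947047 in Epha7-202.
Epha7-201: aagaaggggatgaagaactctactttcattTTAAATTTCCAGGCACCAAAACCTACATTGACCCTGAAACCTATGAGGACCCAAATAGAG
Epha7-203: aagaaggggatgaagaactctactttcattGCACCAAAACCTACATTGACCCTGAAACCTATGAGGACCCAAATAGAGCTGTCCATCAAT
Epha7-202: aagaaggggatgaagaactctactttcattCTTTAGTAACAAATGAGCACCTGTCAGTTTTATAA

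Epha7-202 held 44.4% ± 4.79 of the gene's TPM in wild type and 40.1% ± 3.82 in mutants, against 29.1% ± 6.41 and 33.5% ± 2.33 for Epha7-201 and 8.05% ± 2.99 and 5.30% ± 2.17 for Epha7-203 (SD, n = 4 each). By reads, which count a long transcript more often, Epha7-201 led with 49.0% against 31.0% in wild type. As a percent of the 3 forms together, Epha7-202 stood at 47.1, 48.3, 50.6 and 57.1 in mutant replicates 1 to 4 and at 45.8, 55.9, 58.5 and 57.5 in wild-type replicates 1 to 4. The low values were those of library set 1 (45.8% to 50.6%) and the high ones those of set 2 (55.9% to 58.5%), in both genotypes. Noncoding transcripts Epha7-208, Epha7-205 and Epha7-206 held 6.28%, 7.20% and 3.56% of the wild-type TPM. The share of Epha7-208 did not overlap between the genotypes, at 7.54% ± 0.374 in mutants and at most 6.66% in wild type. Of 25 member transcript shares compared, 2 were higher in mutants without overlap (the other is Efna3-201), beside 1.56% of all transcript shares. None was lower without overlap, and the rate of lower shares over all transcripts is not given here. The 2 higher ones were named after their values were seen, and edgeR's test of transcript use gave Epha7-208 an unadjusted p of 0.600.

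Epha5 was divided over 4 coding transcripts. Epha5-203, of 1006 amino acids, holds exons 4, 5 and 9, on which the forms are compared. Epha5-202 (894 amino acids) lacks exon 5, of 336 bases. Epha5-201 (876 amino acids) and Epha5-204 (819 amino acids) lack exon 4, of 156 bases, as well as exon 5. Epha5-204 also lacks exon 9, of 66 bases, whereas Epha5-201 keeps it and has a further coding exon, later in the transcript, that Epha5-203 lacks. Exons 4 and 9 are printed on the coding minus strand, from chr5:84237399-84237554 and chr5:84117561-84117626, because they are the shorter pieces that set these forms apart, and capitals mark the whole exon.
Epha5-203 exon 4: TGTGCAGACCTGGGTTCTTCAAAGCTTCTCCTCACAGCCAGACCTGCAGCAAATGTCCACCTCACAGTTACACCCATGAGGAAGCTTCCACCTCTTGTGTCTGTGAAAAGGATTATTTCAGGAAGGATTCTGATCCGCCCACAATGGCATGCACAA
Epha5-203 exon 9: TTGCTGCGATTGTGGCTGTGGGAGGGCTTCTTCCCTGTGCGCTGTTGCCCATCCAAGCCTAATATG

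In wild type Epha5-201 held 37.4% ± 3.76 of the gene's TPM, Epha5-203 20.9% ± 1.68, Epha5-204 20.1% ± 1.02 and Epha5-202 13.2% ± 5.03 (SD, n = 4). In mutants the shares were 40.3% ± 3.18, 22.6% ± 3.40, 18.5% ± 2.29 and 11.6% ± 2.84 in the same order. Each share overlapped between the genotypes. Epha5-203, the form with both exon 4 and exon 5, made up 23.7% to 27.3% of the 4 coding transcripts in set 1 and 20.0% to 22.8% in set 2, so it too differed between the library sets without overlap.

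The ligands Efna3 and Efna5 each had a form without exon 4, and the exon that is left out is 78 bases long in Efna3 (chr3:89315808-89315885) and 81 bases long in Efna5 (chr17:62613316-62613396). Both are printed on the coding minus strand as whole exons in capitals, because they are the only coding difference between the long and the short ligand.
Efna3-201 exon 4: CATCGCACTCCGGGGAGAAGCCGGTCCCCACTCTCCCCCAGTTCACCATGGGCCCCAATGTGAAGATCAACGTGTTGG
Efna5-201 exon 4: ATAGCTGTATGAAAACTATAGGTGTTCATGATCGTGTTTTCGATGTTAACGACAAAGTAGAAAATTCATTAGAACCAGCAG

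The long form led in both ligands. Efna3-201 (230 amino acids) held 84.1% ± 0.517 of the gene's TPM in wild type and 88.6% ± 2.58 in mutants, and Efna3-203 (204 amino acids) held 9.36% ± 0.616 and 7.65% ± 1.11. The share of Efna3-201 was higher in each mutant library (85.1% to 90.8%) than in any wild-type library (83.5% to 84.8%), with an unadjusted p of 0.932 in the edgeR test of its use. A noncoding transcript of 454 bases, Efna3-202, held 6.52% ± 0.407 in wild type and 3.76% ± 2.26 in mutants, from 4.71 to 26.2 estimated reads per library. By reads it held 0.848% in wild type and 0.483% in mutants, and Efna3-201 held 96.6% and 97.5%. Efna5-201 (228 amino acids) held 97.2% ± 3.05 in wild type and 96.1% ± 2.91 in mutants, and the rest belonged to Efna5-202 (201 amino acids), which is named for its missing exon.

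The other members had 1 main transcript or could not be divided. Epha3-201 (984 amino acids) held 96.4%, Efna1-201 (205 amino acids) 98.7%, and the single transcripts Efna2-201 (209 amino acids) and Efna4-201 (206 amino acids) 100% of their gene's TPM in wild type. Epha6-201 (1130 amino acids) held 57.8%, the retained-intron transcript Epha6-202 27.0% and the noncoding Epha6-204 12.6%. Epha4-201 and Epha4-205, the latter annotated as a target of nonsense-mediated decay, share all 18 exons and differ by 9 and 4 bases at their ends, so their split, with Epha4-205 at 7.87% to 43.1% of the pair, is uncertain. Together they held 98.3% of the Epha4 reads in wild type, and Epha4-203, a fragment of 614 bases, held 13.0% of the TPM but 0.984% of the reads.

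**Figure D2:**
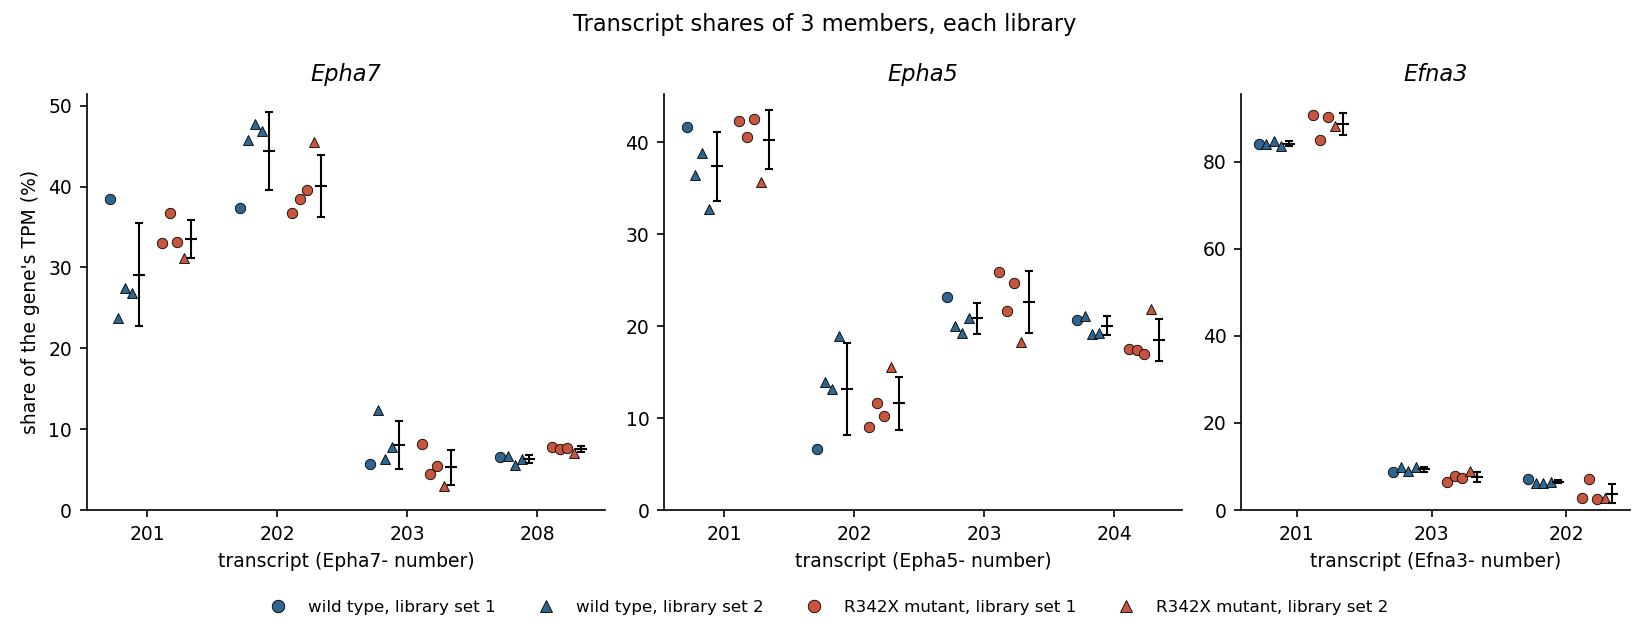
Share of the gene's TPM (percent) held by the main transcripts of Epha7, Epha5 and Efna3 in each library. Circles are libraries of set 1, triangles of set 2, and bars the mean ± SD of 4 libraries. The share of Epha7-202 is lower in set 1 than in set 2 in both genotypes, and Epha7-202 lies above Epha7-203 in each library.

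Between the genotypes, none of the 10 genes passed an adjusted p of 0.05 with genotype as the only term, where 4 of 20097 genes (0.0199%) did. At an unadjusted p under 0.05, there were 4 of the 10 (Epha3, Epha4, Efna4 and Efna5), beside 13.7% of all genes. Beside library set Epha3 passed with an adjusted p of 0.0248, as 1 of 121 genes (0.602%), and it was lower in mutants. The same 4 genes had an unadjusted p under 0.05 in that fit, where the background was again 13.7%. The members were split evenly, with 5 fitted folds above 0 and 5 below, and their median log2 fold change was -0.002 against 0.001 over all genes. Beside library set 4 lay above and 6 below 0, with a median of -0.065 against -0.004. In whole tissue, fewer cells of a type and less RNA per cell cannot be told apart.

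Epha3, a receptor of ephrin-A ligands, was lower in each mutant library. Mutant replicates 1 to 4 had 50.3, 48.9, 47.4 and 48.9 CPM, and wild-type replicates 1 to 4 had 60.2, 62.1, 56.4 and 60.0 CPM. Every mutant library lay below every wild-type library, which was so for 3.2% of all genes (2.95% lay wholly above, and 6.15% were apart in either direction), and no other member was without overlap on this scale. Mutants held 81.9% of the wild-type mean, with a log2 fold change of -0.29 ± 0.05 (SE; 95% interval -0.39 to -0.18) and an edgeR adjusted p of 0.133. The difference was -0.30 in set 1 and -0.28 in set 2 on the log2 scale, and the fold beside library set was -0.29 ± 0.05. Wild-type replicate 1 was the only wild-type library of set 1, and mutant replicate 4 the only mutant library of set 2. Differences within a set, here and for the genes below, thus rest on a single library on 1 side and have no spread there. The call beside library set was lost without mutant replicate 2, mutant replicate 4 or wild-type replicate 1, where the adjusted p reached 0.194. With genotype alone the call was gained without mutant replicate 4 (adjusted p = 0.0313). DESeq2, the tool the submitters name, also called Epha3 lower, with an adjusted p of 2.48e-05, as 1 of 406 genes it called (2.63%).

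The 4 mutant libraries lay below the wild-type mean of Epha4 (225 CPM), and the genotypes overlapped. In mutants the level was 199.8, 199.8, 176.8 and 200.2 CPM by replicate number, and in wild type 249.4, 237.6, 216.4 and 196.5 CPM. The overlap came from wild-type replicate 4, which lay below 3 mutant libraries. The log2 fold change was -0.21 ± 0.07 (95% interval -0.38 to -0.05, adjusted p = 0.290 by edgeR), and beside library set it was -0.25 ± 0.07 with an adjusted p of 0.148. The difference was -0.38 in set 1 and -0.11 in set 2.

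Epha5, Epha6 and Epha7 overlapped between the genotypes. Epha5 ran from 152 to 175 CPM in mutants (148 to 176 in wild type), and its log2 fold change of -0.05 ± 0.07 had a 95% interval of -0.20 to 0.09. Epha7 ran from 92.1 to 109 CPM in mutants (88.7 to 109 in wild type), with a log2 fold change of 0.05 ± 0.08 (-0.12 to 0.22), which turned to -0.042 beside library set. Epha6, the receptor of lowest level, ran from 6.67 to 8.16 CPM in mutants (4.69 to 7.88 in wild type). Its log2 fold change of 0.29 ± 0.15 (-0.04 to 0.62) came with a difference of 0.27 in set 2 and -0.02 in set 1, and it was 0.11 ± 0.11 beside library set. The adjusted p of these 3 receptors was 0.404 or higher with genotype alone.

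Among the ligands, Efna4 and Efna5 had the largest differences, in opposite directions. For Efna4, the mutants had 9.63, 8.57, 9.73 and 10.9 CPM by replicate number, and the wild-type libraries 10.8, 12.0, 12.3 and 12.7 CPM. Only mutant replicate 4 and wild-type replicate 1 overlapped, and each of these lay in the library set that held mostly the other genotype. The log2 fold change was -0.30 ± 0.09 (95% interval -0.50 to -0.10) with an edgeR adjusted p of 0.247. Beside library set it was -0.19 ± 0.07 with an adjusted p of 0.260, and the 2 sets gave -0.22 and -0.17.

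Efna5, a ligand known for its graded expression in sensory cortex, had levels of 22.1, 26.6, 25.0 and 29.7 CPM in the mutants, by replicate number, against 22.4, 24.3, 21.5 and 20.1 CPM in the wild-type libraries. Mutant replicates 2, 3 and 4 lay above every wild-type library, and mutant replicate 1 lay among them. The log2 fold change was 0.23 ± 0.09 (95% interval 0.02 to 0.43, adjusted p = 0.335 by edgeR), and beside library set it was 0.28 ± 0.09 with an adjusted p of 0.167. The difference was 0.13 in set 1 and 0.44 in set 2.

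Efna1, Efna2 and Efna3 overlapped between the genotypes, and their levels went more with library set than with genotype. Efna1 had 3.41 to 4.14 CPM in set 1 and 4.89 to 5.99 CPM in set 2, with no overlap, and a log2 difference of set 2 over set 1 of 0.55 ± 0.12 (SE) at equal genotype. Efna2 went the other way, with 33.9 to 35.1 CPM in set 1, 27.0 to 31.8 CPM in set 2 and a difference of -0.28 ± 0.05. Efna3 had 44.0 to 50.1 CPM in set 1, 40.8 to 43.3 CPM in set 2 and a difference of -0.15 ± 0.05. The receptor Epha6 likewise had 7.33 to 8.16 CPM in set 1 and 4.69 to 6.67 CPM in set 2. The sets were drawn from the same expression values, so these differences are a description. The log2 fold changes between genotypes were -0.17 ± 0.19 for Efna1, 0.06 ± 0.09 for Efna2 and 0.12 ± 0.07 for Efna3, and beside library set they were 0.090, -0.087 and 0.046. Efna1 and Efna2 thus changed sign with the model.

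**Figure D3:**
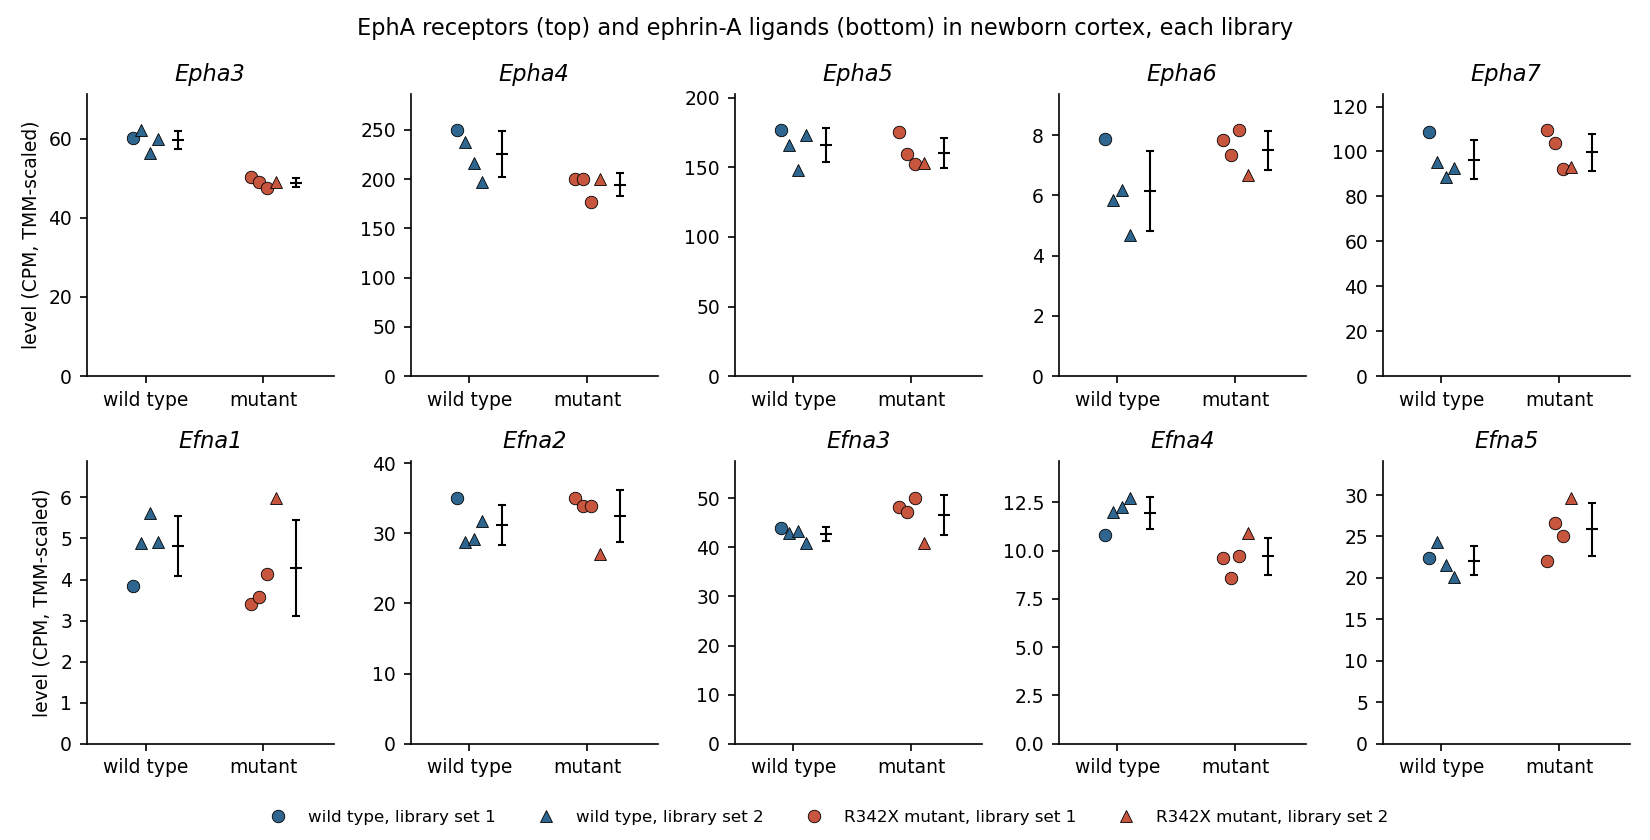
Level of each gene (CPM after TMM scaling) in each library, with receptors above and ligands below. Circles are libraries of set 1, triangles of set 2, and bars the mean ± SD of 4 libraries. The groups are apart for Epha3, where mutants reach at most 50.3 CPM and wild type at least 56.4 CPM, and overlap for the other 9 genes.

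**Figure D4:**
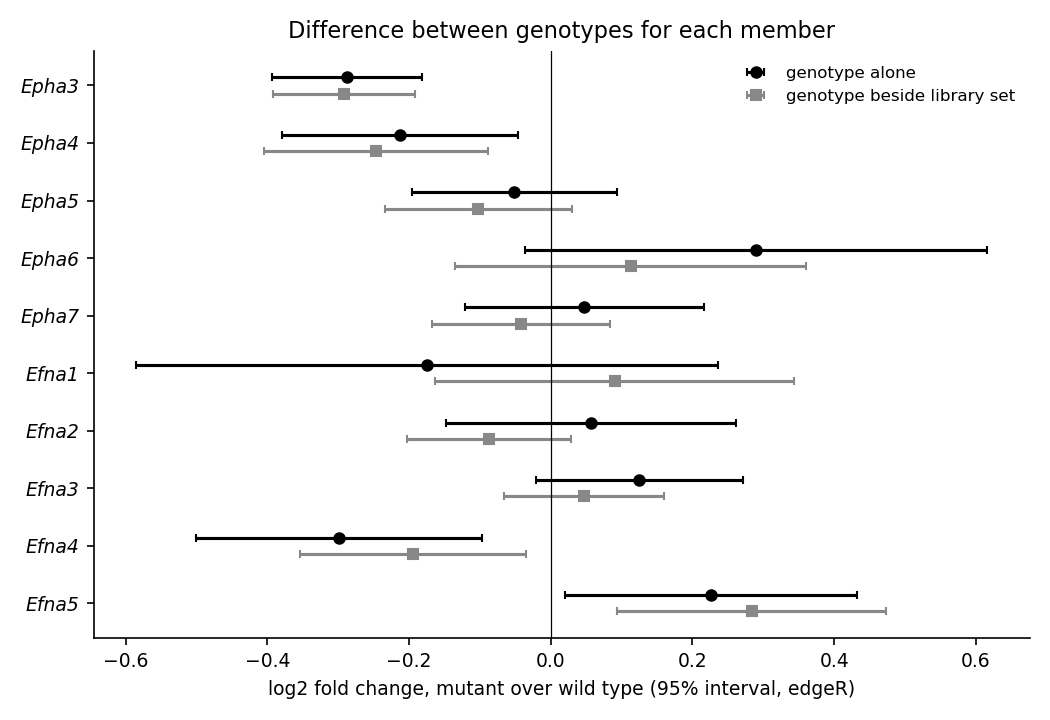
Log2 fold change of each gene, mutant over wild type, with its 95% interval from edgeR, for genotype alone (black circles) and beside library set (grey squares). The intervals of Epha3, Epha4, Efna4 and Efna5 lie to 1 side of 0 in both fits, and Epha7, Efna1 and Efna2 change side.

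Efna4 and Efna5 overlapped between genotypes in CPM but not in TPM. On the deposited TPM, which is not TMM-scaled, 2 members were lower without overlap (Epha3 and Efna4, against 2.01% of all genes) and 1 was higher without overlap (Efna5, against 3.72%). For Efna4 the mutants had 11.3 to 13.6 TPM and the wild-type libraries 14.2 to 15.1 TPM. For Efna5 they had 11.4 to 13.7 TPM and 9.14 to 10.9 TPM. The median gene was 0.05 higher in mutants on log2(TPM + 0.1), so TPM differences are shifted upward by that amount. None of the 10 passed an adjusted p of 0.05 in limma on that scale, where the values for Epha3, Efna4 and Efna5 were -0.22, -0.24 and 0.30 with adjusted p of 0.347, 0.350 and 0.336.

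The receptors together summed to 186 ± 12.6 TPM in mutants, against 192 ± 21.1 TPM in wild type, and the ligands to 107 ± 5.76 and 101 ± 6.08 TPM (SD, n = 4 each). The genotypes overlapped in both sums. The ligand sum went with library set, from 108 to 111 TPM in set 1 and from 97.0 to 99.6 TPM in set 2. Within the receptor sum, Epha3 made up 8.72% to 9.37% in mutants and 9.54% to 10.6% in wild type. Epha7 made up 24.3% to 25.6% in mutants and 22.2% to 23.4% in wild type, though its own level overlapped. The shares of the other receptors, and of each ligand in the ligand sum, overlapped between the genotypes. How often such shares are apart over all genes was not computed. Epha4 was the largest receptor share in every library, at 33.5% to 37.0% in mutants and 33.9% to 39.0% in wild type. These shares are tied to one another, since a lower share of 1 receptor raises those of the others.

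No transcript of a member passed the test between genotypes. Of the 46 transcripts 30 had enough counts, and 0 of these 30 had an adjusted p under 0.05 by edgeR, where 8 of 55749 transcripts (0.0144%) did. At an unadjusted p under 0.05 there were 6, beside 7.37% of all transcripts, and with library set as a term there were 0 calls among the members and 1 of all transcripts (0.00179%). Epha3-201, which carries nearly all of the Epha3 signal, had 15.4 to 16.7 TPM in mutants, 17.8 to 20.3 TPM in wild type and a log2 fold change of -0.26 ± 0.05 (adjusted p = 0.474). The kinase-less Epha7-202 had 16.9 to 20.3 TPM in mutants against 18.4 to 20.0 TPM in wild type (-0.09 ± 0.08, adjusted p = 0.767). Full-length Epha7-201 had 13.9 to 17.6 TPM in mutants against 9.93 to 18.9 TPM in wild type (0.25 ± 0.17, adjusted p = 0.727). A change in the use of transcripts within a gene could be tested for Epha4, Epha5, Epha6, Epha7 and Efna3. None of these 5 was called and none had an unadjusted p under 0.05, where 38 of 11007 genes (0.345%) were called and 2.61% had such a p.

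The other genes of Eph and ephrin signalling were read from a list of 54, of which 53 were tested (Epha1 had too few counts). None had an adjusted p under 0.05 by edgeR, with genotype alone or beside library set, and the folds were divided into 27 above and 26 below 0, with a median log2 fold change of 0.003. At an unadjusted p under 0.05 there were 11 in each fit, beside 13.7% of all genes in each. The higher genes of smallest p were Ret, a receptor tyrosine kinase that can act as a co-receptor of ephrin-A, with means of 8.35 CPM (mutant) and 5.73 CPM (wild type; log2 fold change 0.54 ± 0.13, adjusted p = 0.188), and Epha2, a receptor best known from epithelia, at 2.89 and 1.98 CPM (0.54 ± 0.17, adjusted p = 0.247). The lower genes of smallest p were Nck2, an adaptor that links activated Eph receptors to the actin cytoskeleton, at 77.8 and 89.0 CPM (-0.20 ± 0.05, adjusted p = 0.226), and the ligand Efnb1, at 61.4 and 76.2 CPM (-0.31 ± 0.11, adjusted p = 0.276). DESeq2 called Ret higher and Nck2 lower, and these were its only 2 calls in the list, beside 2.63% of all genes.

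By role, the 3 other EphA receptors tested lay above 0, with a median of 0.40 that became 0.13 beside library set. Of 5 EphB receptors 2 lay above and 3 below 0, with a median of -0.09, and of 3 ephrin-B ligands 1 lay above and 2 below, with a median of -0.009. The kinases and adaptors, which pass on the receptor's signal, had 9 of 15 above 0 (median 0.03, and -0.018 beside library set), the phosphatases 4 of 5 below 0 (median -0.06), and the ephrin-A protease and co-receptors 3 of 4 above 0 (median 0.06).

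**Figure D5:**
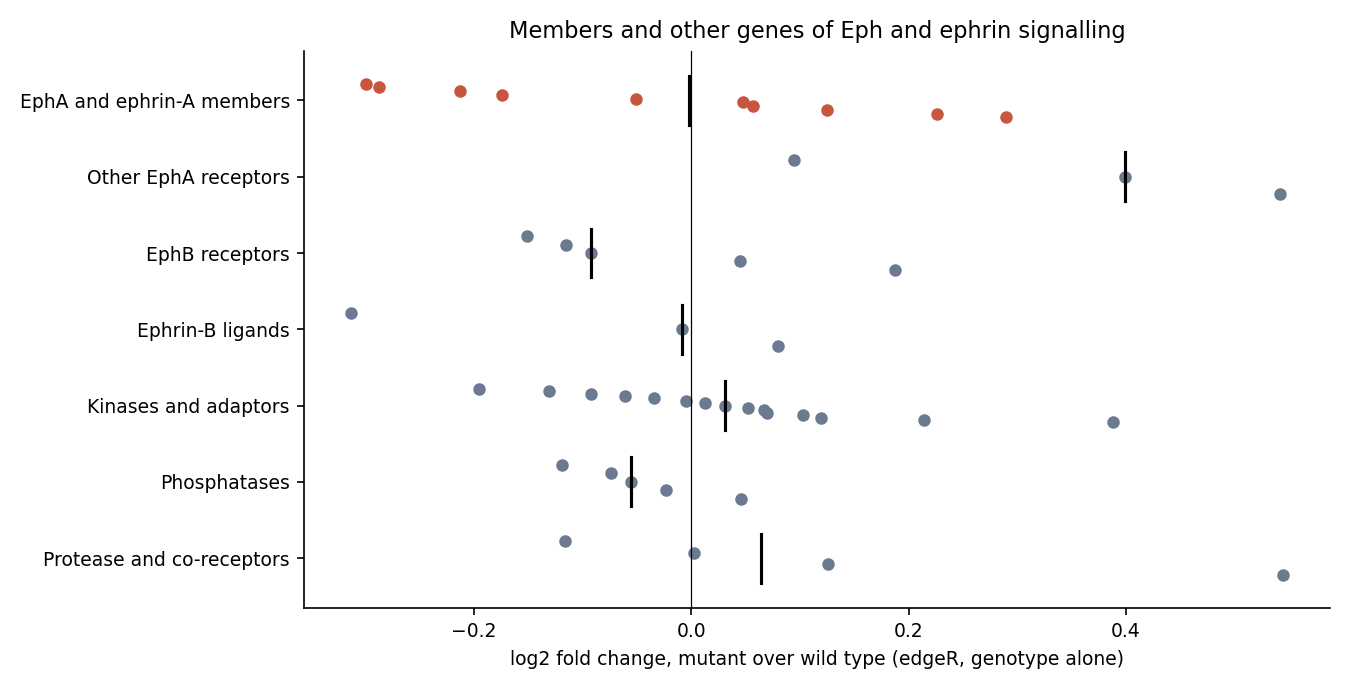
Log2 fold change, mutant over wild type (edgeR, genotype alone), of the 10 members in red and of other pathway genes tested in grey, by role, with the median of each list as a vertical bar. Each list shown except the other EphA receptors has its median within 0.1 of 0, and the members run from -0.30 (Efna4) to 0.29 (Epha6).

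Marker lists of the cell types and neighbouring tissues in the sample were set beside these values. No list had a called gene with genotype alone by edgeR, and 21 of the 73 markers had an unadjusted p under 0.05 (28 beside library set), beside 13.7% of all genes in each fit. The 9 excitatory neuron markers summed to 1796 to 1878 CPM in mutants (1961 to 2052 in wild type). The 5 intermediate progenitor markers summed to 74.7 to 103 CPM (110 to 117 in wild type). Both sums were without overlap, and how often sums of such lists are apart over all genes was not computed. In the first list 6 of 9 genes lay below 0 (median -0.01), with Neurod6, a factor of excitatory neurons, of smallest p (-0.27 ± 0.06, adjusted p = 0.180). In the second 4 of 5 lay below 0 (median -0.25), with Neurog2, a proneural factor, of smallest p (-0.57 ± 0.10, adjusted p = 0.141). The progenitor sum rested most on Insm1, whose mean was 50.9 CPM against 70.8 CPM in wild type and whose libraries overlapped. Btg2 went the other way, at 8.71 against 7.87 CPM. Beside library set Neurod6, Neurog2 and the progenitor gene Insm1 were called lower and the meningeal gene Aldh1a2 higher, beside 0.602% of all genes. The part of these cell types in the Epha3 difference was not tested.

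In the remaining lists the summed levels overlapped between genotypes, and the fold given for each list is that of its gene of smallest p. Radial glia markers had 7 of 8 genes below 0 (median -0.17, Nes of smallest p at -0.24 ± 0.05, adjusted p = 0.179). Interneuron markers had 5 of 7 below 0 (median -0.13, Gad2 at -0.38 ± 0.09, adjusted p = 0.189). Striatal markers, summing to 182 to 214 CPM in mutants (166 to 225 in wild type), had 7 of 8 above 0 (median 0.13, Ppp1r1b at -0.12 ± 0.07, adjusted p = 0.465). Thalamic markers, at 224 to 260 and 235 to 279 CPM, had 4 of 7 below 0 (median -0.13, Rgs16 at -0.34 ± 0.08, adjusted p = 0.179). Mean levels in the thalamic list were highest for Lhx2 (mutant 127, wild type 147 CPM) and lowest for Gbx2 (0.582 and 0.575). Beside library set the list medians moved: the striatal one turned to -0.061, that of radial glia was -0.044, that of interneurons -0.098 and that of the thalamic list -0.061. Endothelial markers had 6 of 7 above 0 (median 0.09, and 0.24 beside library set, Flt1 at 0.14 ± 0.05, adjusted p = 0.313), and meningeal markers 6 of 7 (median 0.14, and 0.32 beside library set, Aldh1a2 at 0.29 ± 0.12, adjusted p = 0.344). The transcription and adhesion factors of cortical area patterning, the setting in which EphA and ephrin-A gradients arise, had 11 of 15 above 0 (median 0.05), with Etv1 at 0.27 ± 0.07 (adjusted p = 0.191).

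The genes whose log2 CPM followed the receptor and the ligand of smallest p most closely over the 8 libraries were found across all tested genes. For Epha3 they were the nuclear export receptor Xpo1 (Pearson r of 0.979), the heparan sulfate sulfotransferase Hs6st2 (0.976) and G2e3 (0.974). For Efna4 they were Oard1 (0.994), the RNA-binding protein gene Mex3b (0.990) and Tigd2 (0.989). With 8 libraries that share genotype, library set and depth, the highest r of 20097 genes is a description of these libraries.

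In the authors' deposited table, 2 of the 10 members had an adjusted p under 0.05, as had 417 of the 14991 genes with an adjusted p. These were Epha3, with a log2 fold change of -0.27 (standard error 0.06, adjusted p = 6.82e-05), and Efna5, with 0.25 (0.10, adjusted p = 0.0286). Epha4 had -0.12 (adjusted p = 0.205) and Efna4 -0.05 (adjusted p = 0.387) in the authors' deposited table. The folds of Efna4 and Epha4 there were smaller than those fitted here, as was that of Epha6, at 0.006. Efna1 (0.009), Efna2 (-0.030) and Efna3 (-0.003) had the sign opposite to that fitted here with genotype alone. Beside library set Efna1 (0.090) and Efna2 (-0.087) had the same sign as in the deposited table, and Efna3 (0.046) did not. For Epha4 the authors' deposited table gives a standard error of 0.12 and an unadjusted p of 0.0149. A fold about as large as its standard error does not yield so small a p. The table's folds may thus be on another scale than those fitted here, which limits the comparison of sizes. Any shrinkage of the table's folds is not given in the sources used here.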

How the data were processed

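RNA of 8 flash-frozen cortex samples was sequenced as mRNA libraries, per the labels' protocols. Per the file headers, the authors deposited an estimated count (expected count) and a TPM value per transcript and library. Salmon 0.12.0, DESeq2 and GRCm38 are named in the submitters' processing notes. The authors' deposited table holds a mean normalized signal, a log2 fold change, and raw and adjusted p-value columns per gene, whose model is not given in the sources used here.

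Estimated counts were summed per gene symbol and identifier, rounded, and tested with edgeR 4.0.16 in R 4.3.3 (TMM, default low-count filter, quasi-likelihood F test, two-sided, Benjamini-Hochberg over all 20097 genes, threshold 0.05). Transcripts were tested likewise, and their use with edgeR's diffSpliceDGE and Simes p-values per gene. The tests were tried on simulated counts. Alternatives used DESeq2 1.42.0, limma 3.58.1 on log2(TPM + 0.1), other filters, offsets for transcript length, a replicate block, library set as a term and each library left out. Annotation and sequences are from GENCODE M21, in which all 46 transcripts matched.

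The members, lists, library sets and tests were chosen with earlier results of these data known. All members were named, as were transcripts with at least 5% of their gene's TPM, the 2 pathway genes of smallest p in each direction, the marker of smallest p per list, called genes, and the 3 genes most like the receptor and the ligand of smallest p, leaving out predicted genes. Lhx2 and Gbx2 were named for their part in the thalamic sum, after their values were seen. Btg2 was named in the same way for the intermediate progenitor sum. The results of a few listed genes and of part of the pathway roles are not reported here, though they remain in the counts over the lists.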

Additional observations from a re-analysis of the deposited data

Results flagged for a closer look

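Each gene's 4 libraries of 1 genotype were checked for a library far from the other 3 (a gap, as a share of the range, above Dixon's critical value), and 2 of the 20 groups passed, where chance gives about 1 in 20. Epha4 was low in mutant replicate 3, at 176.8 CPM against 199.8 to 200.2 CPM in the other mutants. Efna2 was low in mutant replicate 4, at 27.0 CPM against 33.9 to 35.1 CPM in the other mutants. Mutant replicate 4 is the mutant library of set 2, in which the wild-type libraries had 28.8 to 31.8 CPM of Efna2.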

How the results depend on the processing

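The count of members called was 0 with genotype alone. It was 1, always Epha3, with DESeq2 and with library set as a term. Leaving out each library in turn gave 0 to 1 (1 without mutant replicate 4), and doing so beside library set, an alternative chosen after seeing the data, also gave 0 to 1, with Epha3 at -0.31 to -0.27 and an adjusted p of 0.0182 to 0.194. It was 0 with DESeq2 size factors in edgeR, without a filter, at 5 CPM in 4 libraries (where Efna1 was not kept), with length offsets and, added after seeing the data, with limma on TPM. Epha3 kept its direction in each alternative run, from -0.31 to -0.22. With library set as a term Epha7 turned to -0.042, Efna1 to 0.090 and Efna2 to -0.087, and the other 7 kept their sign. Pathway genes called were 0, then 2 with DESeq2 (Nck2 and Ret) and 0 to 3 on leaving out each library (3 without mutant replicate 4: Efnb1, Nck2 and Ret). Member transcripts and transcript usage gave 0 in each alternative. Calls over all genes were 4 with genotype alone, 13 without a filter, 20 with the replicate block, 121 with library set, 406 with DESeq2, 699 when mutant replicate 4 was left out and 14 when wild-type replicate 1 was.

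With the replicate number as a block, 0 members, 0 member transcripts, 0 genes by usage and 0 pathway genes were called. Same-numbered libraries correlated at 0.24, -0.03, -0.08 and 0.32 in their deviations from the group means, so the numbers were not taken as pairs, and not every library correlated best with its own number. Depth limits Efna1 most, with 110 to 203 estimated reads in mutants and 188 to 413 in wild type.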
